A study of Homo sapiens with 12 samples.

Results

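Actinomycin D, a drug that binds DNA, was set directly against degradation of POLR2A, the largest subunit of RNA polymerase II (Pol II), in HCT116, a line derived from a human colorectal carcinoma. The comparison holds the 6 libraries whose sample titles name these treatments, 3 of each, out of 12 in the series. The actinomycin D cells were wild type and had 5 µg/mL of the drug, with 6 h in the titles. The POLR2A-depleted cells came from the line POLR2A-AID2, whose endogenous POLR2A carries a second-generation auxin degron, a tag that marks the protein for destruction when a ligand is added. Their ligand was 5-phenyl-indole-3-acetic acid at 1 µM, with 8 h in the titles. Wild-type cells with DMSO, the solvent, and 8 h in the titles are given beside the values to show each gene's level without either treatment. The remaining 3 libraries, used here only in the shared fit and in a filter outside the contrast, came from the degron line POLR1A-AID1 with its largest Pol I subunit depleted. These cells had 500 µM of the sodium salt of indole-3-acetic acid, with 8 h in the titles, after 1 µg/ml of doxycycline, begun 24 h earlier, to switch on the degron's ubiquitin ligase adapter OsTIR1. The extraction text gives harvest at 6 h for every group. Each library was total RNA depleted of ribosomal RNA (rRNA), and the 3 libraries of a group were dishes treated apart on the same day, so the errors and p-values measure only the spread between such dishes. Libraries of the degron line without ligand were not analysed here, and the labels do not say whether that line is a single clone. Drug against degron, wild type against edited line, and 6 h against 8 h therefore cannot be told apart in any value below.

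Pol II makes messenger RNAs, most long non-coding RNAs and most spliceosomal small nuclear RNAs. Pol I makes the rRNA precursor, Pol III makes transfer RNAs and other short RNAs, and mitochondria use a polymerase of their own. Actinomycin D inserts into DNA next to guanine and blocks the advance of RNA polymerases in general, while the degron takes away a subunit that belongs to Pol II alone. When synthesis stops, short-lived RNAs such as those of immediate early genes are known to disappear first and long-lived RNAs such as those of ribosomal proteins last.

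Set against POLR2A depletion, actinomycin D left less RNA from replication-dependent histone genes, of which 44 of 45 tested were called lower, from short-lived and immediate early genes (34 of 40), p53 targets (24 of 29) and mitochondrial mRNAs (13 of 13). Among all 23593 tested genes 39.8% were lower. It left more from ribosomal protein genes (74 of 79 higher), which depends on the scale as given below, and from sterol synthesis genes (20 of 25), beside 31.1% of all tested genes. Genes that are nearly silent in untreated cells gave several times less RNA with actinomycin D than with POLR2A depleted.

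Totals were 20302164 to 27393969 counts in the actinomycin D libraries, 11289094 to 15037410 in the POLR2A-depleted ones and 12235068 to 17535685 in DMSO controls. Reduced to the smallest total, the actinomycin D libraries held 27781 ± 293 genes with a count, against 37438 ± 450 with POLR2A depleted and 29847 ± 800 in DMSO controls (SD, n = 3 each; exact permutation p = 0.1 for actinomycin D against POLR2A depletion, two-sided, the smallest that 3 against 3 allow). Mitochondrial RNA made up 3.56% ± 0.0757 of counts with actinomycin D, against 9.61% ± 0.88 with POLR2A depleted and 7.3% ± 1.08 in DMSO controls (SD, n = 3 each; exact permutation p = 0.1, the smallest possible). The 100 most abundant genes took 25.9% ± 0.473 of counts with actinomycin D, 28.6% ± 1.61 with POLR2A depleted and 24.9% ± 1.48 in DMSO controls (SD, n = 3 each; exact permutation p = 0.1). In bulk RNA, fewer cells of a type and less RNA per cell cannot be told apart, and no spike-in sets an absolute scale, so every level below is a share of its library.

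The degron removes protein, so its mRNA does not check the label. POLR2A (ENSG00000181222, chr17:7484366-7514616 on GRCh38, with this and later gene coordinates from GENCODE release 29) had 576, 620.2 and 558 CPM with actinomycin D, against 1094, 1073 and 1110 CPM with POLR2A depleted and 468, 561 and 514 CPM in DMSO controls. Its log2 fold change was -0.90 (SE 0.06), actinomycin D over POLR2A-depleted, as for every fold change below. Levels are counts-per-million (CPM) after TMM scaling, and a gene is called higher or lower where its edgeR quasi-likelihood p, adjusted by Benjamini-Hochberg over all tested genes, is under 0.05. POLR1A, the largest Pol I subunit, had 193, 203 and 177 CPM with actinomycin D, against 128, 142 and 133 CPM with POLR2A depleted and 234, 249 and 229.8 CPM in DMSO controls, a log2 fold change of 0.51 (SE 0.06) that became -0.14 when libraries were scaled to ribosomal protein mRNAs.

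The epithelial origin of the cells was visible in both groups, but several lineage markers separated the degron line from the wild-type groups. Of 15 colon epithelial markers 13 were tested, 6 were called higher and 6 lower, beside 31.1% and 39.8% of all tested genes. The summed level of the list was 3354 to 3650 CPM with actinomycin D, 2524 to 2730 CPM with POLR2A depleted and in DMSO controls 3694 to 4179 CPM. CDH1, the epithelial cadherin, had 114 to 124 CPM with actinomycin D, against 65.5 to 71.7 CPM with POLR2A depleted and in DMSO controls 81.3 to 93.4 CPM. LGR5 (chr12:71439770-71586310), a receptor of intestinal stem cells, had no count in any actinomycin D or DMSO library and 18.8, 21.7 and 21.1 CPM with POLR2A depleted. Against a floor of 3 counts over the group it was at least 446-fold lower with actinomycin D. LGR5 may have been tested only because it was high with POLR2A depleted, so its call as lower was nearly fixed in advance. VIL1, the actin bundler of microvilli, had 0, 0.159 and 0.564 CPM with actinomycin D, against 3.42, 2.49 and 1.33 CPM with POLR2A depleted and 1.17, 1.08 and 0.759 CPM in DMSO controls, with a log2 fold change of -3.27 (SE 0.79) that became -4.66 without actinomycin D replicate 3. CLDN3, a tight junction claudin, went the other way with 3.29, 3.82 and 3.85 CPM with actinomycin D, against 0.603, 1.07 and 0.249 CPM with POLR2A depleted and 3.59, 5.63 and 4.03 CPM in DMSO controls, a log2 fold change of 2.44 (SE 0.33), or 3.05 without POLR2A-depleted replicate 2.

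Markers of other lineages stood at low summed levels. Of 13 blood cell markers 8 were tested, 5 were called lower and 0 higher, beside 39.8% and 31.1% of all tested genes. Their sum was 5.93 to 6.81 CPM with actinomycin D, 20.2 to 27.1 CPM with POLR2A depleted and in DMSO controls 4.79 to 5.52 CPM. CD14 and ITGAM, with 0 and 15 counts over the DMSO libraries, may have been tested only because they were high with POLR2A depleted. In such a gene a call as lower is nearly fixed in advance. The myeloid marker ITGAM had 0.108, 0.199 and 0.141 CPM with actinomycin D, against 10.6, 11.7 and 7.05 CPM with POLR2A depleted and 0.234, 0.12 and 0.584 CPM in DMSO controls. CD14 held 3 counts over the actinomycin D libraries and 164 over the POLR2A-depleted ones, a ratio of 0.0124 with a 95% counting interval of 0.00252 to 0.0367. Of 13 mesenchymal markers 9 were tested, 2 were higher and 5 lower, beside 31.1% and 39.8% of all tested genes (sum 49.6 to 55.8 CPM with actinomycin D, 58.9 to 64.6 CPM with POLR2A depleted, 48.7 to 59.3 CPM in DMSO controls). Of 10 neural markers 7 were tested, with 2 higher and 2 lower, beside 31.1% and 39.8% of all tested genes (sum 156 to 162 CPM with actinomycin D, 127 to 132 CPM with POLR2A depleted, 147 to 155 CPM in DMSO controls). Whether these lineage genes mark the edited line or the loss of POLR2A cannot be told apart.

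Of 23593 genes tested, 7337 (31.1%) were called higher with actinomycin D and 9389 (39.8%) lower. The falls were the larger ones: 1655 genes (7.01%) were higher by 2-fold or more and 7470 (31.7%) were lower by as much. Every actinomycin D library lay above every POLR2A-depleted library for 7672 genes (32.5%) and below for 9847 (41.7%). The median log2 fold change over all tested genes was -0.18. It was -0.42 with library totals alone and -0.82 with libraries scaled to ribosomal protein mRNAs, and the share of calls that were higher went with it, at 43.9% as reported, 31.9% with library totals and 10.7% with the ribosomal protein scale. Small shifts in either direction thus depend on the scale, and gene groups are described beside the median of all genes and with the settings that turn them.

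Protein-coding genes leaned the other way from non-coding ones. Of 14924 protein-coding genes 6671 (44.7%) were higher and 5064 (33.9%) lower. A gene can enter the test only because it is high in the POLR2A-depleted libraries, so the counts were also taken over the 19193 genes that passed the same filter in the DMSO and POLR1A-depleted libraries, which are outside the contrast. There 7273 (37.9%) were higher and 6165 (32.1%) lower, and among the 13332 protein-coding genes 6650 (49.9%) were higher and 3741 (28.1%) lower.

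Replication-dependent histone genes, which encode the bulk histones made in S phase from short intronless mRNAs, had the lowest median fold change of the gene lists described here. Of 56 listed genes 45 were tested, 44 were called lower and 0 higher, and their median log2 fold change was -4.80, the same with H2AC7 set at its bound. Their summed level was 112 to 134 CPM with actinomycin D, against 1992 to 2162 CPM with POLR2A depleted and in DMSO controls 5564 to 7025 CPM, so both treatments stood below the controls and actinomycin D far below POLR2A depletion. Over the actinomycin D libraries 13 listed genes had no count, over the POLR2A-depleted libraries none, and over the DMSO libraries 4. Histone genes are close copies of each other, and the way shared reads were divided makes the value of a single copy uncertain.

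H2AC11 (ENSG00000196787, chr6:27133042-27135291), an H2A gene, had 1.94, 1.15 and 1.36 CPM with actinomycin D, against 72, 70.7 and 70.4 CPM with POLR2A depleted and 226, 274 and 254 CPM in DMSO controls. Its log2 fold change was -5.61 (SE 0.12), adjusted p = 3.38e-18. H2AC7 (chr6:26198851-26199243) had no count with actinomycin D and 31.5, 21.8 and 33.9 CPM with POLR2A depleted, at least 615-fold lower against a floor of 3 counts over the group. The other core histone genes with the deepest falls repeat the pattern of near absence with actinomycin D. H2BC11 had 0.323, 0.358 and 0.705 CPM with actinomycin D, against 32.6, 28.2 and 27 CPM with POLR2A depleted and 76.3, 92.3 and 79.7 CPM in DMSO controls. H2AC12 had 1.02, 0.717 and 1.32 CPM with actinomycin D, against 60.7, 59.1 and 56.6 CPM with POLR2A depleted and 122, 152 and 138 CPM in DMSO controls. H3C4 had 0.0539, 0.279 and 0.188 CPM with actinomycin D, against 15.4, 7.11 and 12.4 CPM with POLR2A depleted and 83.2, 118 and 94.4 CPM in DMSO controls. These were log2 fold changes of -5.97 (SE 0.19), -5.87 (SE 0.14) and -5.91 (SE 0.68). H4C12 had counts in a single actinomycin D library, replicate 2, at 2.91 CPM, against 98.2, 95 and 99.7 CPM with POLR2A depleted, and its fitted value of -6.45 (SE 0.52) became -13.75 without that library. H3C15 was as uneven, at 2.59, 0 and 4.18 CPM with actinomycin D, against 113, 113 and 84.4 CPM with POLR2A depleted and 345, 308 and 260.2 CPM in DMSO controls, with -5.60 (SE 0.50), or -4.92 without actinomycin D replicate 2 and -6.53 without replicate 3. H4C2 and H2BC17 were lower by similar amounts, at -5.43 (SE 0.25) and -5.37 (SE 0.15). The member that was not called, H4C3, had 40.0, 32.1 and 44.2 CPM with actinomycin D, against 45.1, 39.7 and 45.4 CPM with POLR2A depleted, with adjusted p = 0.173.

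Promoters of genes from both ends of the comparison are printed here because the histone genes, unlike most genes, often carry a TATA box, a site that positions Pol II initiation. Each is the 250 bases before the gene's start in RefSeq on GRCh38.p14, 5′ to 3′ on the gene's strand. Capitals mark, on either strand, the TATA box TATAAA, the CCAAT box and the GC box GGGCGG; a match on the other strand appears as its reverse complement. H2AC11 lies at chr6:27132793-27133042 on the plus strand, BTG2 at chr1:203305269-203305518 on the plus strand, CEMIP at chr15:80779120-80779369 on the plus strand and MAN1A1 at chr6:119349762-119350011 on the minus strand.
H2AC11: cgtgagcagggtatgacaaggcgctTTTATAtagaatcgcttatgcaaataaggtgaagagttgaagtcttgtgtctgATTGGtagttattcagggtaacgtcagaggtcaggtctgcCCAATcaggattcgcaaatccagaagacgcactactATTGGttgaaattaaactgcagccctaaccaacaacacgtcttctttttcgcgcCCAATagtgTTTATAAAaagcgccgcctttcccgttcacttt
BTG2: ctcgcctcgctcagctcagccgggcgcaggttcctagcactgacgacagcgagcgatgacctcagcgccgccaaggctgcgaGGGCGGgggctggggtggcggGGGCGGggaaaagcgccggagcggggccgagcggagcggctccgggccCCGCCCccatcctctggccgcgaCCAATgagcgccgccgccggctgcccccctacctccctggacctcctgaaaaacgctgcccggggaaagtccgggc
CEMIP: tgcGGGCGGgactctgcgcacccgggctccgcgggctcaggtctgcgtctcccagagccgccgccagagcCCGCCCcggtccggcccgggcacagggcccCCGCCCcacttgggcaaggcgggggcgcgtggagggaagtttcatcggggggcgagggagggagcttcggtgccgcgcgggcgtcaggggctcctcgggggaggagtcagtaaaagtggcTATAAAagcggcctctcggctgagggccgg
MAN1A1: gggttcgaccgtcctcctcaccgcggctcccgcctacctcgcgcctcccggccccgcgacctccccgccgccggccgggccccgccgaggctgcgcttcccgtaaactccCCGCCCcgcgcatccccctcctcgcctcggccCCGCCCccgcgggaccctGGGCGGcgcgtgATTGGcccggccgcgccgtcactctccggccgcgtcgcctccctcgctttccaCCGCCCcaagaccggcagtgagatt
H2AC11, lower with actinomycin D, holds a TATAAA 31 bases before the start that overlaps its own reverse complement, and 4 CCAAT matches. CEMIP, higher with actinomycin D, has a TATAAA 30 bases before the start, so the motif is found at both ends. BTG2, a lower gene, and MAN1A1, a higher gene, have none. Over all 27305 promoters that RefSeq gives, 11.1% held TATAAA on either strand, 33.0% CCAAT and 42.3% GGGCGG. At any position in the 250 bases and on either strand, TATAAA was in 29 of the 41 histone promoters found (70.7%) and CCAAT in 34 of them (82.9%). TATAAA, counted in the same way, was in 5.07% of 1045 promoters of protein-coding genes called higher by 2-fold or more. It was in 11.9% of 2627 promoters of those called lower by 2-fold or more, and in 6.41% of 11825 promoters of all tested protein-coding genes. The GGGCGG box ran the other way, at 68.5%, 48.6% and 64.2% of the same 3 sets. These 3 sets were drawn from all tested genes. The lower set includes histone genes, and genes that may have entered the test only by being high with POLR2A depleted. Of 3468 protein-coding genes lower by 2-fold or more, 2145 passed the filter outside the contrast. Motif shares over those alone were not taken. A match describes letters in a window and shows no bound factor.

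**Figure D1:**
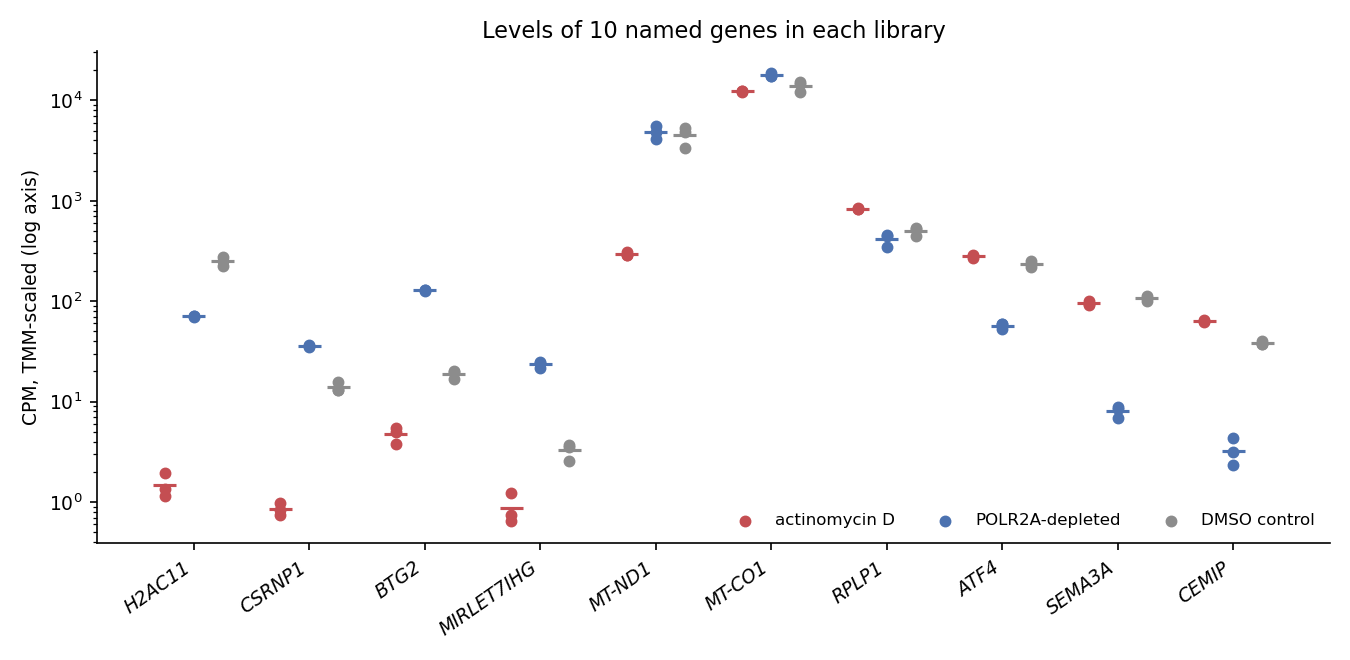
Levels of 10 named genes in each library, in TMM-scaled CPM on a log axis; points are libraries, horizontal lines are means of 3, with actinomycin D in red, POLR2A-depleted in blue and DMSO in grey. H2AC11, CSRNP1, BTG2, MIRLET7IHG and the mitochondrial MT-ND1 and MT-CO1 lie lower with actinomycin D than with POLR2A depleted, while RPLP1, ATF4, SEMA3A and CEMIP lie higher.

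Transcripts that turn over fast were far lower with actinomycin D than with POLR2A depleted. Of 40 short-lived and immediate early genes 34 were called lower and 3 higher, with a median log2 fold change of -2.29. Set against DMSO controls, the medians of the same genes were -2.64 with actinomycin D and -0.48 with POLR2A depleted, which are level differences to shared controls. The list's sum was 716 to 756 CPM with actinomycin D, against 2029 to 2284 CPM with POLR2A depleted and in DMSO controls 3747 to 4084 CPM.

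CSRNP1 (chr3:39141855-39154562), a nuclear protein of the immediate early class, had 0.97, 0.836 and 0.752 CPM with actinomycin D, against 36.5, 36.2 and 35.1 CPM with POLR2A depleted and 15.6, 13.2 and 13.1 CPM in DMSO controls. Its log2 fold change was -5.39 (SE 0.13), and with POLR2A depleted it stood above the controls. The stress factor ATF3 had 2.53, 2.47 and 2.58 CPM with actinomycin D, against 48.3, 44.3 and 55.5 CPM with POLR2A depleted and 10.3, 10.7 and 10.7 CPM in DMSO controls, again above the controls with POLR2A depleted only, at -4.28 (SE 0.12). KLF10, a transcription factor induced by TGF-beta, had 8.57 to 10.7 CPM with actinomycin D, against 151 to 159 CPM with POLR2A depleted and in DMSO controls 115 to 132 CPM, at -4.01 (SE 0.07). MYC, named after its values were seen, shows the other course, in which both treatments stood below the controls: it had 10.5, 12.7 and 12.4 CPM with actinomycin D, against 90.4, 75.2 and 79.2 CPM with POLR2A depleted and 662, 783 and 759 CPM in DMSO controls, with -2.77 (SE 0.10). The 3 genes called higher were JUND, an AP-1 subunit, ZFP36L2, an RNA-binding protein that promotes mRNA decay, and the kinase gene PIM1. JUND had 21.1, 28 and 30.2 CPM with actinomycin D, against 17, 12.9 and 13.9 CPM with POLR2A depleted and 48.3, 45 and 43.4 CPM in DMSO controls, with 0.86 (SE 0.12). ZFP36L2 and PIM1 were higher by 0.51 (SE 0.13) and 0.45 (SE 0.15), and scaling to ribosomal protein mRNAs turned them to -0.14 and -0.19; without POLR2A-depleted replicate 2 the PIM1 call was lost at 0.38.

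NF-kB target genes followed. Of 20 listed 17 were tested, 11 were lower and 2 higher, beside 39.8% and 31.1% of all tested genes, with a median of -1.34. NFKBIA (chr14:35401511-35404749), the inhibitor that NF-kB induces against itself, had 1.89, 1.75 and 2.07 CPM with actinomycin D, against 27.1, 27.7 and 25.5 CPM with POLR2A depleted and 29.7, 35.9 and 32.8 CPM in DMSO controls, so POLR2A depletion left it near its control level. IRF1, a transcription factor of the interferon response, had 2.37, 2.87 and 2.91 CPM with actinomycin D, against 42.3, 42.3 and 37.6 CPM with POLR2A depleted and 13.3, 15.7 and 12.9 CPM in DMSO controls. NFKBIE, a related inhibitor, was lower at -2.89 (SE 0.17), beside -3.82 (SE 0.12) for NFKBIA and -3.90 (SE 0.12) for IRF1.

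Targets of p53 were mostly lower with actinomycin D than with POLR2A depleted. p53 is a transcription factor that stress stabilises, and its targets arrest the cell cycle, repair DNA or start cell death. Of 30 listed targets 29 were tested, 24 were called lower and 3 higher, with a median of -1.21, and against DMSO controls the median was -0.14 with actinomycin D and 0.74 with POLR2A depleted. Several of these mRNAs are also short-lived, and the list does not separate the 2 properties.

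BTG2 (chr1:203305491-203309602), an antiproliferative factor, had 3.83, 5.41 and 5.03 CPM with actinomycin D, against 130.2, 129 and 127 CPM with POLR2A depleted and 19.8, 16.7 and 20.3 CPM in DMSO controls. The log2 fold change was -4.74 (SE 0.09), adjusted p = 9.24e-20. SESN2 (chr1:28259527-28282491), a sestrin that restrains mTOR, had 1.19, 1.79 and 1.36 CPM with actinomycin D, against 46.8, 46.9 and 46 CPM with POLR2A depleted and 8.67, 11 and 9.11 CPM in DMSO controls, with -4.98 (SE 0.12). Both lay above controls with POLR2A depleted and below them with actinomycin D, with no overlap between groups. SPATA18, a factor of mitochondrial quality control, was called lower at -4.09 (SE 0.67), on 5 counts over the actinomycin D libraries and 64 over the POLR2A-depleted ones. With 3 counts over the DMSO libraries, SPATA18 may have been tested only because it was high with POLR2A depleted, so that call was nearly fixed in advance. CDKN1A (chr6:36676460-36687339), the gene of the cyclin-dependent kinase inhibitor p21, named after its values were seen, had 109, 100.2 and 113 CPM with actinomycin D, against 215, 213 and 218 CPM with POLR2A depleted and 74.7, 86.6 and 77.1 CPM in DMSO controls, so it was above controls in both and lower with actinomycin D, at -1.01 (SE 0.06). With actinomycin D its log2 difference to controls, 0.43, was under the median of 0.62 for ribosomal protein mRNAs, so that order depends on the scale. MDM2, which encodes the ligase that degrades p53 and was likewise chosen with its values known, had 178 to 185 CPM with actinomycin D, against 215 to 224 CPM with POLR2A depleted and in DMSO controls 204 to 219 CPM, at -0.27 (SE 0.05). The members called higher were CCNG1, a cyclin G, at 172 to 179 CPM with actinomycin D, against 98.7 to 99.7 CPM with POLR2A depleted and in DMSO controls 77.8 to 81.5 CPM, BAX, which permeates the mitochondrial membrane in apoptosis, at 0.27 (SE 0.08), and RRM2B, a ribonucleotide reductase subunit, at 0.22 (SE 0.06). BAX became -0.37 and RRM2B -0.42 with the ribosomal protein scale, and RRM2B -0.02 with library totals alone.

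The protein-coding genes with the largest rises over POLR2A depletion stood near or above their control level with actinomycin D and below it in the POLR2A-depleted libraries. PRKAA2 (chr1:56645322-56715335), which encodes an AMPK kinase subunit that senses low energy, had 10.2, 10.2 and 10.5 CPM with actinomycin D, against 0.067, 0.118 and 0 CPM with POLR2A depleted and 10.4, 9.89 and 11 CPM in DMSO controls. Its 670 counts with actinomycin D against 3 with POLR2A depleted give a ratio of 151, with a 95% counting interval of 51.4 to 733, and the fitted log2 fold change of 7.10 (SE 0.28) became 7.89 without POLR2A-depleted replicate 2. CEMIP (chr15:80779343-80951776), a hyaluronan-degrading factor of cell migration, had 63.1, 65 and 62 CPM with actinomycin D, against 3.15, 4.32 and 2.32 CPM with POLR2A depleted and 37.5, 40.6 and 37.8 CPM in DMSO controls, at 4.24 (SE 0.12). MEF2C (chr5:88717117-88904257), a MADS-box transcription factor, had 57.3, 58.2 and 58.1 CPM with actinomycin D, against 3.82, 2.37 and 3.98 CPM with POLR2A depleted and 35.8, 35.8 and 38.4 CPM in DMSO controls, at 4.12 (SE 0.12). SEMA3A (chr7:83955777-84492724), a secreted axon guidance cue, had 93.8, 92 and 99.8 CPM with actinomycin D, against 8.91, 6.87 and 8.37 CPM with POLR2A depleted and 100.4, 112 and 108 CPM in DMSO controls, at 3.57 (SE 0.09). The rule that names these genes requires that the libraries of the 2 treatments do not overlap. In all 4 the control libraries were closer to actinomycin D.

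MAN1A1 (chr6:119177209-119349761), a Golgi mannosidase that trims glycans, had 481, 481 and 497 CPM with actinomycin D, against 43.3, 47.3 and 43.4 CPM with POLR2A depleted and 251, 262 and 251 CPM in DMSO controls, at 3.44 (SE 0.06), adjusted p = 7.68e-21. ZNF704, a zinc finger gene, had 141 to 158 CPM with actinomycin D, against 9.92 to 11.4 CPM with POLR2A depleted and in DMSO controls 84.5 to 92.9 CPM, at 3.79 (SE 0.08). DENND5B, a Rab exchange factor, had 80.0 to 90.6 CPM with actinomycin D, against 7.04 to 9.48 CPM with POLR2A depleted and in DMSO controls 41.2 to 44.9 CPM, at 3.34 (SE 0.10). VSNL1, a neuronal calcium sensor, and MPP7, a scaffold of tight junctions, were higher by 3.32 (SE 0.16) and 3.31 (SE 0.07). GFY, known for its part in olfactory signalling in mouse, was higher by 3.32 (SE 0.19).

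Long-lived and housekeeping mRNAs moved little and in the direction of actinomycin D, an order that depends on the scale. Of 35 long-lived mRNAs 31 were called higher and 0 lower, with a median of 0.37 that turned to -0.28 with the ribosomal protein scale. FTL, the light chain of the iron store ferritin, had 1658, 1738 and 1727 CPM with actinomycin D, against 729.9, 726 and 727 CPM with POLR2A depleted and 712, 865 and 777 CPM in DMSO controls, at 1.23 (SE 0.06). GSTP1, a glutathione transferase, had 564 to 614 CPM with actinomycin D, against 324 to 367 CPM with POLR2A depleted and in DMSO controls 314 to 366 CPM, and the keratin KRT18 687 to 757 CPM with actinomycin D, against 368 to 435 CPM with POLR2A depleted and in DMSO controls 939 to 1146 CPM. KRT18 stood below the controls in both treatments, and GSTP1 above them with actinomycin D.

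Of 79 ribosomal protein genes 74 were called higher and 0 lower, with a median of 0.61 and a range of 0.07 to 1.01. Their summed level was 54151 to 59395 CPM with actinomycin D, against 34423 to 38788 CPM with POLR2A depleted and in DMSO controls 33538 to 39372 CPM. Scaling to these same mRNAs puts their median at -0.03 by construction. RPLP1, a protein of the ribosomal stalk, had 855, 829 and 824 CPM with actinomycin D, against 451, 343 and 455 CPM with POLR2A depleted and 446, 541 and 519.5 CPM in DMSO controls, at 1.01 (SE 0.12). RPL28 and RPL13A, both of the large subunit, were higher by 0.97 (SE 0.06) and 0.94 (SE 0.08). These genes have many processed pseudogenes, and reads shared with them make single values uncertain.

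Of 40 ribosome biogenesis genes 28 were higher and 9 lower, and with the ribosomal protein scale 4 were higher and 23 lower. Their median of 0.42 turned to -0.22 with that scale, and against DMSO controls the medians were -0.45 with actinomycin D and -0.73 with POLR2A depleted. UTP18, of the small subunit processome, had 69.3, 61.7 and 66.1 CPM with actinomycin D, against 24.7, 19.8 and 26.6 CPM with POLR2A depleted and 88.1, 94.7 and 93.9 CPM in DMSO controls, at 1.48 (SE 0.08). WDR3 and WDR36, of the same assembly, were higher by 0.93 (SE 0.06) and 0.90 (SE 0.06). NOP2, an rRNA methyltransferase, had 42.3, 45.1 and 40.4 CPM with actinomycin D, against 120.2, 116 and 113 CPM with POLR2A depleted and 131, 153 and 141 CPM in DMSO controls, at -1.45 (SE 0.06), and so was lower with actinomycin D. RRP8 and RRS1, which act in rRNA processing and large subunit assembly, were lower, at -1.20 (SE 0.10) and -1.04 (SE 0.13). Small nucleolar RNAs (snoRNAs) are cut from introns of host genes. Of 24 such hosts 14 were higher and 8 lower, beside 31.1% and 39.8% of all tested genes. Their median was 0.36, or -0.29 with the ribosomal protein scale. SNHG1 had 146, 152 and 148 CPM with actinomycin D, against 56.4, 53.2 and 54.6 CPM with POLR2A depleted and 279, 278 and 294 CPM in DMSO controls, 2.71-fold higher with adjusted p = 6.28e-16. SNHG5 had 34.3, 33.4 and 31.3 CPM with actinomycin D, against 95.6, 90.2 and 95.7 CPM with POLR2A depleted and 108, 103 and 121 CPM in DMSO controls, at -1.51 (SE 0.06). SNHG25 and SNHG19 were higher by 1.42 (SE 0.25) and 1.03 (SE 0.16), and SNHG14 and SNHG30 lower, at -2.17 (SE 0.22) and -1.37 (SE 0.26).

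**Figure D2:**
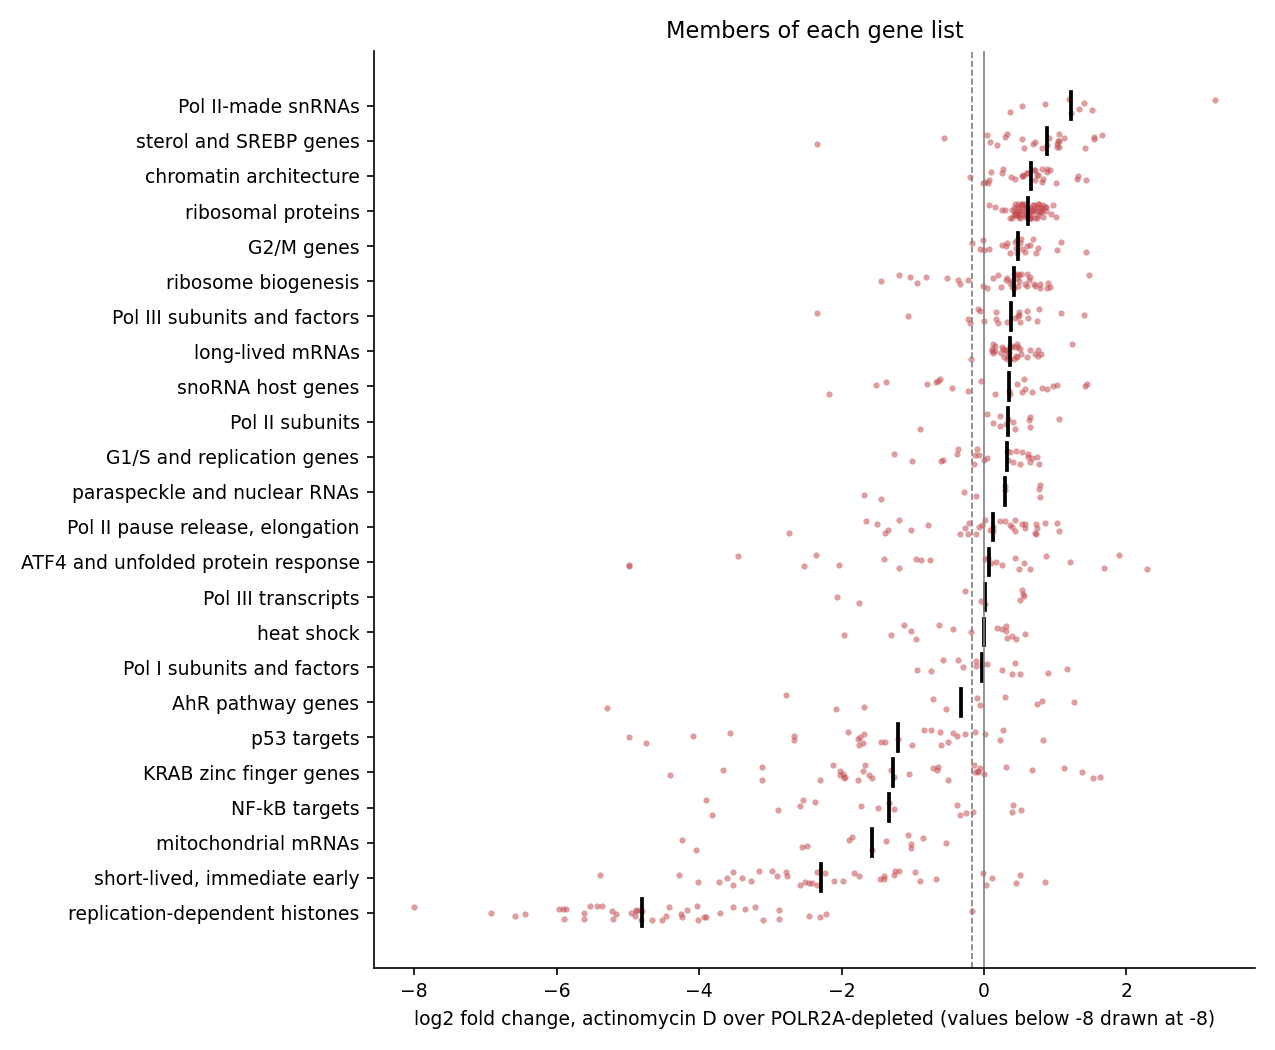
Log2 fold change, actinomycin D over POLR2A-depleted, of each tested member (points) of each gene list, with the list's median as a black bar; the solid line is 0 and the dashed line the median of all tested genes, and values below -8 are drawn at -8. Replication-dependent histones have the lowest median, at -4.80, and the snRNAs the highest, at 1.22.

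All 13 mitochondrial mRNAs were lower with actinomycin D than with POLR2A depleted, as were 15 of the 17 tested mitochondrial transfer RNA genes, while the rRNAs from the same genome were not. The summed level of the mRNAs was 37745 to 38627 CPM with actinomycin D, against 77282 to 100290 CPM with POLR2A depleted and in DMSO controls 57897 to 83682 CPM. Their median log2 fold change was -1.57, and against DMSO controls the medians were -1.63 with actinomycin D and 0.26 with POLR2A depleted. Among the mRNAs, MT-CO1, of cytochrome oxidase, fell least, and MT-ND1 and MT-ND2, of complex I, fell most.

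MT-ND1 (chrM:3307-4262), a complex I subunit, had 287, 306 and 287 CPM with actinomycin D, against 5506, 4135 and 4882 CPM with POLR2A depleted and 3369, 4850 and 5243 CPM in DMSO controls. Its log2 fold change was -4.04 (SE 0.18). MT-ND2, next along the genome, had 379, 422 and 388 CPM with actinomycin D, against 8538, 6500 and 7411 CPM with POLR2A depleted and 4979, 7181 and 7664 CPM in DMSO controls, at -4.24 (SE 0.18). For both, the actinomycin D libraries lay far below the POLR2A-depleted and control libraries, which overlapped each other. MT-CO1, the catalytic subunit of cytochrome oxidase, had 12175, 12386 and 12306 CPM with actinomycin D, against 18650, 17561 and 17398 CPM with POLR2A depleted and 12070, 14517 and 15363 CPM in DMSO controls, at -0.54 (SE 0.07). MT-CO2 and MT-CO3 of the same enzyme were lower, at -1.03 (SE 0.18) and -0.86 (SE 0.10). The ATP synthase subunits MT-ATP8 and MT-ATP6, whose reading frames overlap, were lower, at -1.57 (SE 0.34) and -1.02 (SE 0.18). The remaining complex I subunits were lower, at -2.48 (SE 0.16) for MT-ND3, -1.37 (SE 0.23) for MT-ND4L, -1.07 (SE 0.17) for MT-ND4 and -2.56 (SE 0.16) for MT-ND5. MT-CYB, of complex III, was lower, at -1.89 (SE 0.13). MT-ND6, the mRNA read from the opposite strand, had 344 to 399 CPM with actinomycin D, against 942 to 1662 CPM with POLR2A depleted and in DMSO controls 881 to 1443 CPM, at -1.85 (SE 0.24). Without a stated strand setting, its reads cannot be separated from those of the other strand at the same place.

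Transfer RNA genes are short, and reads assigned to them in such libraries may come from unprocessed precursors as well as from mature RNA. The exact intervals given for ratios cover counting error only. MT-TI (chrM:4263-4331), between MT-ND1 and MT-ND2, held 3 counts over the actinomycin D libraries and 838 over the POLR2A-depleted ones, a ratio of 0.00242 with a 95% counting interval of 0.000498 to 0.00709. MT-TQ, on the other strand beside it, had 0.701, 0.637 and 0.705 CPM with actinomycin D, against 37.5, 19.6 and 21.2 CPM with POLR2A depleted and 16.1, 7.97 and 29.6 CPM in DMSO controls, at -5.26 (SE 0.72). The rRNA MT-RNR2 had 492, 696 and 586 CPM with actinomycin D, against 304, 198 and 459 CPM with POLR2A depleted and 368, 508 and 451 CPM in DMSO controls, at 0.89 (SE 0.34), adjusted p = 0.0424. That call was lost without actinomycin D replicate 2 or 3 and without POLR2A-depleted replicate 1 or 2, with values of 0.65 to 0.90 in those fits. MT-RNR1 had 252, 411 and 335 CPM with actinomycin D, against 161, 97.6 and 263 CPM with POLR2A depleted and 191, 239 and 213 CPM in DMSO controls, at 0.95 (SE 0.46), adjusted p = 0.0958, and passed at 1.37 without POLR2A-depleted replicate 3. The kit depletes rRNA, so these 2 levels are what depletion left. MTND2P28 on chromosome 1, a nuclear copy of MT-ND2 that shares its reads, was lower, at -4.37 (SE 0.11).

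**Figure D3:**
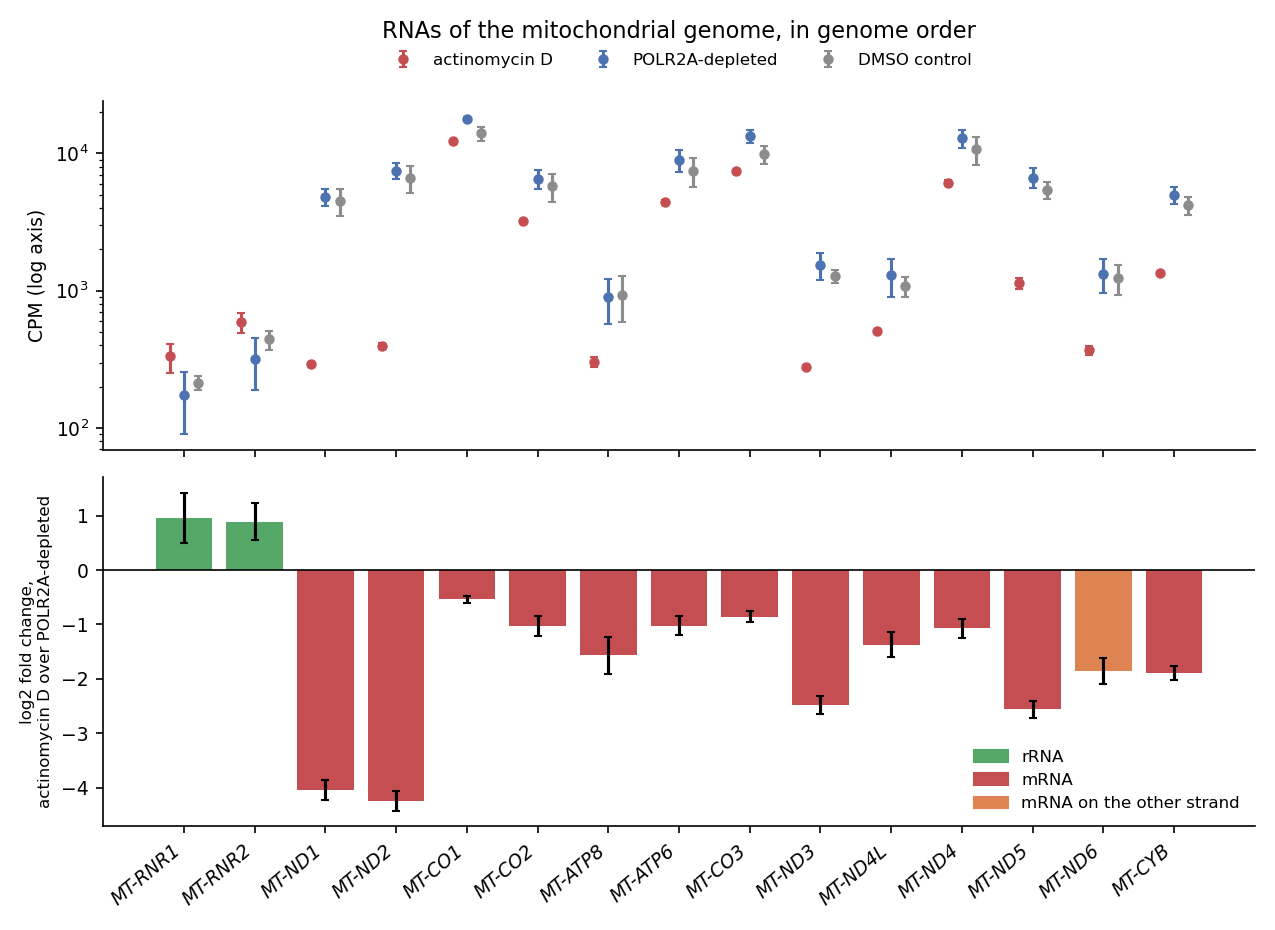
RNAs of the mitochondrial genome in genome order: above, mean CPM ± SD over 3 libraries on a log axis, actinomycin D in red, POLR2A-depleted in blue, DMSO in grey; below, log2 fold change, actinomycin D over POLR2A-depleted, ± SE. All 13 mRNAs are below 0, from -0.54 for MT-CO1 to -4.24 for MT-ND2, and both rRNAs are above 0.

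Pol III transcripts had a median near 0, with a wide spread among the POLR2A-depleted libraries. Of 20 listed 9 were tested, 3 were higher and 2 lower, beside 31.1% and 39.8% of all tested genes. Their median of 0.01 turned to -0.23 with library totals alone and to -0.64 with the ribosomal protein scale. RN7SK, the scaffold that holds the elongation kinase P-TEFb inactive, had 16927, 15129 and 16990 CPM with actinomycin D, against 17758, 15197 and 15790 CPM with POLR2A depleted and 10848, 14789 and 13149 CPM in DMSO controls. Its log2 fold change of 0.01 (SE 0.10) was not called, adjusted p = 0.94, and changed sign without actinomycin D replicate 1 or 3 or POLR2A-depleted replicate 2 or 3, at -0.02 to -0.01. RN7SL1 and RN7SL2, near-identical genes of the signal recognition particle RNA, had log2 fold changes of 0.55 (SE 0.18) and 0.50 (SE 0.18), called as higher. Without actinomycin D replicate 1 or 3 neither was called, at 0.46 to 0.52, nor was RN7SL2 without POLR2A-depleted replicate 2 or 3, at 0.37 and 0.53. RPPH1, the RNA of ribonuclease P, had 5318, 4774 and 5032 CPM with actinomycin D, against 4146, 2569 and 3559 CPM with POLR2A depleted and 2554, 3792 and 3099 CPM in DMSO controls, at 0.56 (SE 0.19), and lost its call without actinomycin D replicate 1 or 3, at 0.52 and 0.56. RMRP, the related RNA of ribonuclease MRP, had a value of 0.53 (SE 0.22) and was not called, adjusted p = 0.0551, but was without POLR2A-depleted replicate 1, at 0.70. The ribosomal protein scale turned RN7SK to -0.63, RN7SL1 to -0.09, RN7SL2 to -0.14, RPPH1 to -0.08 and RMRP to -0.10.

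BCYRN1, a primate short RNA first known from neurons, had 6.47, 6.29 and 5.17 CPM with actinomycin D, against 30.9, 21 and 23.1 CPM with POLR2A depleted and 13.3, 24 and 37.1 CPM in DMSO controls, at -2.06 (SE 0.36), adjusted p = 0.000777. RNU6ATAC, a minor spliceosome RNA made by Pol III, was called lower at -1.76 (SE 0.64), on 10 counts over the actinomycin D libraries and 23 over the POLR2A-depleted ones. It lost the call without actinomycin D replicate 1 or 2 or POLR2A-depleted replicate 1 or 3, at -1.42 to -1.61, and stood at -2.48 without actinomycin D replicate 3. The Y RNAs, which bind the Ro protein, were not called: RNY1 stood at -0.04 (SE 0.44) and RNY3 at -0.27 (SE 0.68). RNY1 changed sign without actinomycin D replicate 3, at 0.03, and without POLR2A-depleted replicate 1 or 3, at 0.31 and 0.04, and RNY3 without POLR2A-depleted replicate 1, at 0.77, while it stood at -0.91 without actinomycin D replicate 1.

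Small nuclear RNAs made by Pol II had a higher median with actinomycin D than with POLR2A depleted. Of 19 listed 9 were tested, 4 were called higher and 0 lower, beside 31.1% and 39.8% of all tested genes, with a median of 1.22. Their summed level was 94.2 to 102 CPM with actinomycin D, against 25.3 to 59.9 CPM with POLR2A depleted and in DMSO controls 59.9 to 132 CPM. Against DMSO controls the medians were -0.12 with actinomycin D and -1.31 with POLR2A depleted. RNU4-1, a U4 gene, had 50.9, 51 and 47.2 CPM with actinomycin D, against 29.2, 11.6 and 19.1 CPM with POLR2A depleted and 28.8, 65 and 57.9 CPM in DMSO controls, at 1.33 (SE 0.35). RNU4-2, its near-copy, had 38.1, 35.8 and 35.1 CPM with actinomycin D, against 25.4, 9.77 and 12.5 CPM with POLR2A depleted and 22.7, 52.2 and 42.2 CPM in DMSO controls, at 1.19 (SE 0.37), and lost its call without POLR2A-depleted replicate 2 or 3, at 0.93 and 1.06. RNU5E-1 had 1.99, 2.55 and 2.21 CPM with actinomycin D, against 0.335, 0 and 0.415 CPM with POLR2A depleted and 1.64, 3.42 and 2.92 CPM in DMSO controls, at 3.24 (SE 0.60), or 2.59 without POLR2A-depleted replicate 2, and RNVU1-7, a variant U1, 1.22 (SE 0.41), which was not called without actinomycin D replicate 1 or POLR2A-depleted replicate 3, at 1.02 and 1.08. Of the members not called, RNU5A-1 stood at 0.86 (SE 0.42) and RNU5D-1 at 1.51 (SE 0.70). RNU5A-1 passed without actinomycin D replicate 2 or POLR2A-depleted replicate 3, at 1.06 and 1.41, and RNU5D-1 without actinomycin D replicate 1, at 1.81. RNU12 and RNU4ATAC, of the minor spliceosome, stood at 0.54 (SE 0.44) and 0.36 (SE 0.57), and the ribosomal protein scale turned them to -0.09 and -0.28, as did leaving out actinomycin D replicate 3 for RNU4ATAC, at -0.23. RNVU1-18, at 1.40 (SE 1.45), had counts in POLR2A-depleted replicate 3 alone of its group and moved to 7.43 and a call without it, and to 0.79 and 0.77 without replicate 1 and replicate 2. Mature small nuclear RNAs are short, stable and near-identical between copies, which this library type measures poorly.

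Of 13 Pol II subunit genes 9 were higher and 1, POLR2A, lower, with a median of 0.34 that turned to -0.31 with the ribosomal protein scale. POLR2M, a Pol II subunit-associated factor, had 74 to 83.9 CPM with actinomycin D, against 36.9 to 37.3 CPM with POLR2A depleted and in DMSO controls 55.2 to 59.6 CPM, at 1.06 (SE 0.07). POLR2J and POLR2I were higher by 0.64 (SE 0.10) and 0.64 (SE 0.13), and the ribosomal protein scale put POLR2J at 0.00 and turned POLR2I to -0.01. Of 15 Pol I subunits and factors 6 were higher and 5 lower, beside 44.7% and 33.9% of all tested protein-coding genes, with a median of -0.03. The initiation factor genes TAF1B and UBTF were higher by 1.17 (SE 0.11) and 0.90 (SE 0.07). POLR1C and POLR1D, subunits that Pol I shares with Pol III, were lower, at -0.94 (SE 0.08) and -0.57 (SE 0.06), and the Pol I subunit gene POLR1F, at -0.75 (SE 0.07). The Pol III machinery list held 22 genes, of which 14 were higher and 3 lower, beside the same 44.7% and 33.9%. Its median was 0.39, or -0.26 with the ribosomal protein scale. POLR3E and POLR3B were higher by 1.40 (SE 0.07) and 1.08 (SE 0.09), and GTF3A, the factor for 5S rRNA genes, by 0.77 (SE 0.06). BRF2, the initiation factor of the U6 type of Pol III promoter, had 1.56, 1.11 and 0.94 CPM with actinomycin D, against 5.83, 6.81 and 5.64 CPM with POLR2A depleted and 11.4, 12.3 and 10.0 CPM in DMSO controls, at -2.35 (SE 0.19). GTF3C4, of the factor TFIIIC, was lower, at -1.06 (SE 0.06).

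Of 35 genes for factors of pausing and elongation 16 were higher and 12 lower, shares near the 44.7% and 33.9% of all tested protein-coding genes, with a median of 0.12 that turned to -0.12 with library totals alone and to -0.52 with the ribosomal protein scale. The lower members included parts of the P-TEFb and 7SK system. ELL, an elongation factor, had 4.91, 6.89 and 5.78 CPM with actinomycin D, against 40.1, 41.1 and 37.6 CPM with POLR2A depleted and 25.1, 24.9 and 25.2 CPM in DMSO controls, at -2.74 (SE 0.10). CCNT1, the cyclin of P-TEFb, had 70.7, 69 and 68.9 CPM with actinomycin D, against 196, 191 and 201 CPM with POLR2A depleted and 149, 162 and 165 CPM in DMSO controls, at -1.50 (SE 0.05). MEPCE, the enzyme that caps 7SK, was lower, at -1.65 (SE 0.09), while LARP7, which binds the other end of 7SK, had 36.3 to 37.1 CPM with actinomycin D, against 15.9 to 21.4 CPM with POLR2A depleted and in DMSO controls 34.5 to 43.4 CPM and was higher by 1.05 (SE 0.11). BRD3, a bromodomain reader, and TCEA2, a TFIIS gene, were higher by 1.03 (SE 0.07) and 0.85 (SE 0.15).

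Genes of chromatin architecture were called higher or lower depending on the scale. Of 30 genes for cohesin, condensin, lamina and heterochromatin proteins 24 were higher and 1 lower with TMM scaling, 21 and 5 with library totals alone, and 9 and 10 with the ribosomal protein scale. Their median was 0.65 with TMM and 0.01 with the ribosomal protein scale. NCAPH, a condensin I subunit, had 86.9, 78.2 and 82.7 CPM with actinomycin D, against 30.9, 28.7 and 32.7 CPM with POLR2A depleted and 78.6, 84 and 81 CPM in DMSO controls, at 1.43 (SE 0.06). LBR, the lamin B receptor, had 220.0, 218 and 221 CPM with actinomycin D, against 85.1, 93.5 and 87.4 CPM with POLR2A depleted and 138, 148 and 135 CPM in DMSO controls, at 1.31 (SE 0.06). EHMT2, a histone H3 lysine 9 methyltransferase, was higher by 1.32 (SE 0.06). The lower member was LMNA, which encodes lamins A and C, with 399.8 to 429.8 CPM with actinomycin D, against 439 to 494 CPM with POLR2A depleted and in DMSO controls 302 to 327 CPM, at -0.19 (SE 0.05); without a filter on low counts it stood at 0.00. KRAB zinc finger genes, which encode DNA-binding repressors of transposable elements and have short-lived mRNAs as a class, were on the other side: of 40 listed 35 were tested, 22 were lower and 5 higher, with a median of -1.27. ZNF57 (chr19:2900898-2918476) had 0.593, 1.11 and 0.799 CPM with actinomycin D, against 19.6, 19.6 and 15.8 CPM with POLR2A depleted and 12.9, 15.3 and 13.6 CPM in DMSO controls, at -4.41 (SE 0.19). ZNF14 and ZNF12 were lower, at -3.66 (SE 0.19) and -3.11 (SE 0.08). Against them, ZNF91, ZNF33B and ZNF33A, the last pair close copies, were higher by 1.63 (SE 0.09), 1.53 (SE 0.12) and 1.38 (SE 0.08). CCAAT stood in 21 of 30 KRAB promoters found (70.0%).

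The ATF4 and unfolded protein response list held large differences in both directions. Of 25 genes 11 were higher and 10 lower, beside 44.7% and 33.9% of all tested protein-coding genes. Their median of 0.06 turned to -0.18 with library totals alone and to -0.58 with the ribosomal protein scale. ATF4 (chr22:39519695-39522685), the transcription factor of amino acid stress, had 283, 269 and 290.1 CPM with actinomycin D, against 59.4, 59.8 and 52.7 CPM with POLR2A depleted and 221, 233 and 251 CPM in DMSO controls. Its log2 fold change was 2.29 (SE 0.06), adjusted p = 1.83e-17, and it was above the controls with actinomycin D and below them with POLR2A depleted. With actinomycin D, ATF4 had a log2 difference to controls of 0.26, under the 0.62 median of ribosomal protein mRNAs, so that order depends on the scale. Its target ASNS, which makes asparagine, had 165 to 167 CPM with actinomycin D, against 44.4 to 45.5 CPM with POLR2A depleted and in DMSO controls 83.8 to 104 CPM, at 1.89 (SE 0.07). PHGDH, the first enzyme of serine synthesis, had 121 to 132 CPM with actinomycin D, against 38.3 to 39.9 CPM with POLR2A depleted and in DMSO controls 56.8 to 57.7 CPM, at 1.68 (SE 0.06). Both stood above the controls with actinomycin D and below them with POLR2A depleted. VLDLR, a lipoprotein receptor, had 0.323, 0.438 and 0.047 CPM with actinomycin D, against 9.58, 7.82 and 9.29 CPM with POLR2A depleted and 1.8, 1.08 and 2.39 CPM in DMSO controls, at -4.98 (SE 0.39), or -5.59 without actinomycin D replicate 2, and DDIT4, an inhibitor of mTOR, had 0.995 to 1.64 CPM with actinomycin D, against 11.6 to 15.8 CPM with POLR2A depleted and in DMSO controls 36 to 38.3 CPM, at -3.46 (SE 0.17). In VLDLR and DDIT4 every actinomycin D library lay below every POLR2A-depleted one, the reverse of ATF4.

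Of 25 genes of cholesterol and fatty acid synthesis and the SREBP factors that control them 20 were higher and 2 lower. With library totals 18 were higher and 4 lower, and with the ribosomal protein scale 13 and 7. The median was 0.88, or 0.64 with library totals and 0.23 with the ribosomal protein scale. DHCR7, the last enzyme of cholesterol synthesis, had 100.0, 97.9 and 96.3 CPM with actinomycin D, against 32.4, 31.7 and 28.8 CPM with POLR2A depleted and 79.5, 84.5 and 74.6 CPM in DMSO controls, at 1.66 (SE 0.07). SQLE, the squalene epoxidase, had 50.0 to 53.4 CPM with actinomycin D, against 16.7 to 19.2 CPM with POLR2A depleted and in DMSO controls 93.4 to 105 CPM, below controls in both, at 1.54 (SE 0.07). MVK, mevalonate kinase, was lower, at -0.56 (SE 0.13). In 17 of 18 sterol promoters found (94.4%) a GGGCGG stood within the window, and in 14 (77.8%) a CCAAT. Heat shock genes had a median of 0.00, with 7 of 16 higher and 7 lower, beside 44.7% and 33.9% of all tested protein-coding genes. That median was negative under each other scale, at -0.24 with library totals and -0.64 with the ribosomal protein scale. The inducible co-chaperones DNAJB1 and DNAJB4 were lower, at -1.97 (SE 0.07) and -1.13 (SE 0.09), and the chaperone HSP90AA1 had 4888 to 5082 CPM with actinomycin D, against 3155 to 3492 CPM with POLR2A depleted and in DMSO controls 2798 to 3573 CPM, at 0.57 (SE 0.07), or -0.07 with the ribosomal protein scale.

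Of 25 G1/S and replication genes 13 were higher and 7 lower, close to the 49.9% and 28.1% of protein-coding genes that passed the filter outside the contrast. Their median of 0.32 turned to -0.33 with the ribosomal protein scale, where 0 were higher and 17 lower. The replicative helicase genes MCM7, MCM3 and MCM6 were higher by 0.77 (SE 0.05), 0.75 (SE 0.06) and 0.67 (SE 0.06). The G1/S regulators CCNE1, E2F2 and CDC25A were lower, at -1.27 (SE 0.08), -1.01 (SE 0.08) and -0.60 (SE 0.07). Of 25 G2/M genes 20 were higher and 1 lower, and with the ribosomal protein scale 3 were higher and 12 lower. The median was 0.47, or -0.17 with that scale. BUB1B, a spindle checkpoint kinase, had 138, 136 and 130.4 CPM with actinomycin D, against 48.5, 52.4 and 49.2 CPM with POLR2A depleted and 132, 146 and 146 CPM in DMSO controls, at 1.43 (SE 0.06). TTK, of the same checkpoint, and TOP2A, which untangles chromosomes, were higher by 1.08 (SE 0.08) and 1.02 (SE 0.06). KIF23, a kinesin of cytokinesis, was lower, at -0.17 (SE 0.05); it stood at 0.02 without a filter and lost its call, at -0.13, without POLR2A-depleted replicate 3.

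Nuclear RNAs divided sharply. NEAT1 (chr11:65422774-65445540), the RNA that builds paraspeckles, had 209, 266 and 217 CPM with actinomycin D, against 594, 676 and 616 CPM with POLR2A depleted and 198, 136 and 182 CPM in DMSO controls, at -1.45 (SE 0.18). It was highest in the POLR2A-depleted libraries, with no overlap. MALAT1, its abundant and stable neighbour on chromosome 11, had 11087, 11772 and 11194 CPM with actinomycin D, against 7090, 6089 and 6788 CPM with POLR2A depleted and 9002, 8318 and 10261 CPM in DMSO controls, at 0.77 (SE 0.07). KCNQ1OT1, an imprinted antisense RNA whose reads cannot be told from its host's without a stated strand setting, was lower, at -1.68 (SE 0.18). The paraspeckle protein NONO and the RNA-binding protein TARDBP were higher by 0.79 (SE 0.05) and 0.78 (SE 0.05). Over the list of 9, 5 were higher and 3 lower, beside 31.1% and 39.8% of all tested genes. Its median of 0.30 turned to -0.34 with the ribosomal protein scale. The aryl hydrocarbon receptor (AhR) pathway was listed because auxins and indoles can be its ligands. Of 13 genes 12 were tested, with 4 higher and 5 lower and a median of -0.32. These shares are near the 31.1% and 39.8% of all tested genes. TIPARP, a direct target and also an unstable mRNA, had 10.4, 13.4 and 11.2 CPM with actinomycin D, against 86.4, 76 and 79.4 CPM with POLR2A depleted and 101, 102 and 108 CPM in DMSO controls, at -2.78 (SE 0.08), and was not above the controls with POLR2A depleted. UGT1A6 held 1 count over the actinomycin D libraries and 38 over the POLR2A-depleted ones, a ratio of 0.0178 with a 95% counting interval of 0.000439 to 0.105; its gene shares exons with its UGT1A neighbours, so the value is uncertain. SCIN was lower, at -2.08 (SE 0.63), on 13 and 39 counts over the actinomycin D and POLR2A-depleted libraries. Over the DMSO libraries UGT1A6 and SCIN had 0 and 7 counts. Both may have been tested only because they were high with POLR2A depleted, which nearly fixes a call as lower in advance. ARNT, the partner of the receptor, NQO1, a target shared with NRF2, and LRAT were higher by 1.27 (SE 0.08), 0.82 (SE 0.05) and 0.74 (SE 0.18).

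Long non-coding classes were lower with actinomycin D. Of all 19193 genes that passed the filter outside the contrast, 32.1% were lower and 37.9% higher. Among them, 441 of 808 lincRNAs were lower and 76 higher, with a median of -0.94. Of 1405 antisense genes 729 were lower and 81 higher, with a median of -1.02. Of 210 genes named as divergent transcripts, which start beside a promoter and run away from it, 122 were lower and 15 higher, and their medians against DMSO controls were -0.28 with actinomycin D and 0.73 with POLR2A depleted. Between the treatments, the median log2 fold change was -1.01 for these divergent transcripts and 0.24 for protein-coding genes that passed. Without a stated strand setting, antisense and overlapping transcripts cannot be separated from the genes they overlap.

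Individual non-coding genes were as far apart as the histones. MIRLET7IHG (chr12:62602752-62622213), the host transcript of the microRNA let-7i, had 0.647, 1.23 and 0.752 CPM with actinomycin D, against 21.8, 24.3 and 25 CPM with POLR2A depleted and 3.67, 2.58 and 3.56 CPM in DMSO controls, at -4.71 (SE 0.21). MIR663AHG (chr20:26186920-26251526), host of miR-663a, had 13, 24.6 and 27.2 CPM with actinomycin D, against 1565, 605 and 955 CPM with POLR2A depleted and 1131, 842 and 704 CPM in DMSO controls, at -5.58 (SE 0.51), with a wide spread among the POLR2A-depleted libraries. LINC02331 (chr14:53768942-53850882) had the largest rise of the non-coding genes named here, with 22.3, 22.6 and 20.5 CPM with actinomycin D, against 1.47, 1.24 and 1.91 CPM with POLR2A depleted and 17.4, 14.7 and 17.9 CPM in DMSO controls, at 3.84 (SE 0.16). PHLDA1-AS1 was higher by 2.93 (SE 0.54) on 116 and 10 counts over the actinomycin D and POLR2A-depleted libraries, or 2.34 without POLR2A-depleted replicate 1 and 3.93 without replicate 2, while both groups were far below the 19.6 to 27.2 CPM of the controls. The readthrough gene STAG3L5P-PVRIG2P-PILRB, the pseudogene PHC1P1 and SMARCA5-AS1 were higher by 1.99 (SE 0.22), 1.71 (SE 0.15) and 1.46 (SE 0.18); all 3 overlap or copy other genes, so their values are uncertain.

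Across genes the direction followed the level in untreated cells. The 19193 genes that passed the filter outside the contrast were ordered by their mean CPM in DMSO controls and cut into 5 equal groups. In the lowest group, up to 1.32 CPM, 190 genes were higher and 1676 lower, with a median of -0.94. In the middle group, from 5.44 to 21.1 CPM, 1569 were higher and 1222 lower, with a median of 0.14. In the highest group, above 58.4 CPM, 2773 were higher and 590 lower, with a median of 0.42. In that lowest group the medians against DMSO controls were -0.36 with actinomycin D and 0.47 with POLR2A depleted, and in the highest 0.16 and -0.28 in the same order of treatments. A level set by the DMSO libraries also enters those last differences, so they are descriptions.

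Gene structure went with direction as well. Of 264 protein-coding genes with 1 exon 32 were higher and 167 lower, with a median of -1.22, and without histone genes 30 of 229 were higher and 135 lower, with a median of -1.03. Of 1920 genes with 2 to 4 exons 554 were higher and 905 lower, with a median of -0.29. Of 11148 genes with 5 or more exons 6064 were higher and 2669 lower, with a median of 0.30. By gene span, the medians were 0.11, 0.15, 0.22, 0.29 and 0.41 in 5 equal groups from the shortest to the longest. The GC content of transcripts gave no such order, with medians of 0.26, 0.23, 0.21, 0.23 and 0.28 in 5 equal groups from the lowest to the highest.

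**Figure D4:**
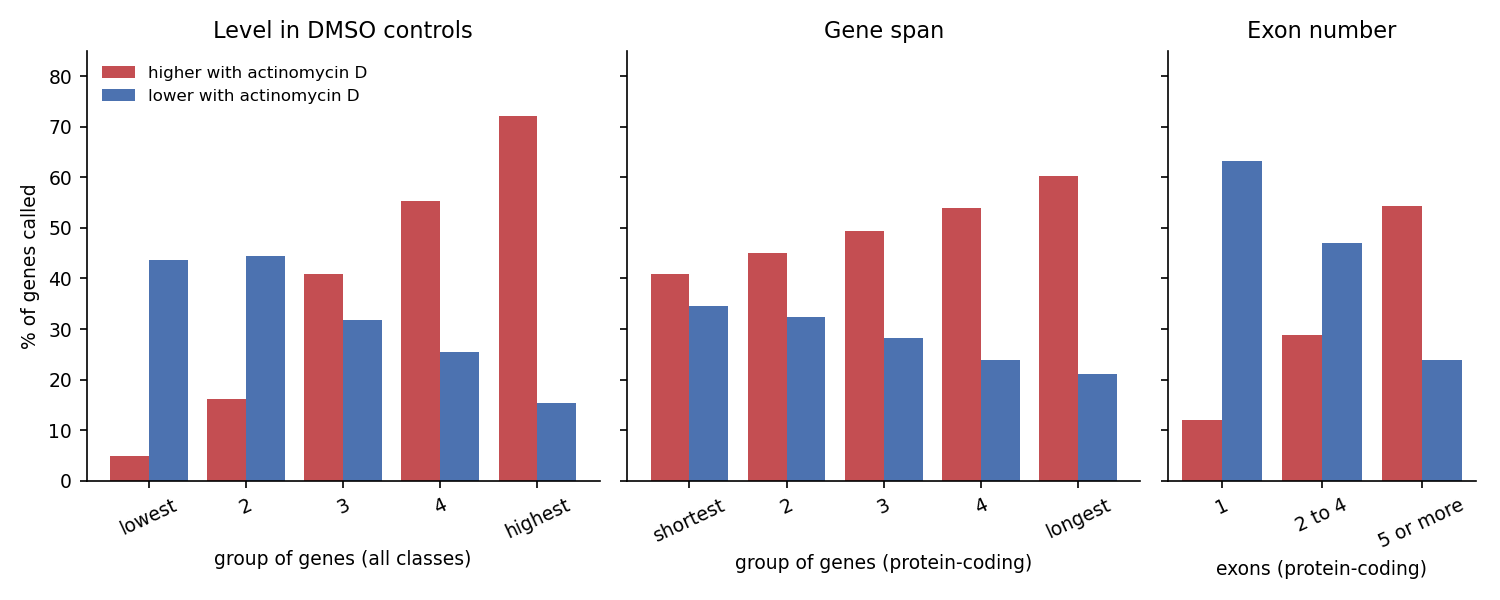
Percent of genes called higher (red) and lower (blue) with actinomycin D, in 5 equal groups by DMSO level over all classes, in 5 equal groups by gene span and by exon number over protein-coding genes, among genes that passed the filter in DMSO and POLR1A-depleted libraries. The share called higher goes from 4.95% in the lowest DMSO group to 72.2% in the highest, and from 12.1% with 1 exon to 54.4% with 5 or more.

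RNA from genes near silence set the POLR2A-depleted libraries apart from the others. The 44043 genes outside the mitochondrion that did not pass the filter in the DMSO and POLR1A-depleted libraries took 2185 ± 52.7 CPM, here relative to the library total without TMM scaling, with actinomycin D, against 11801 ± 1124 with POLR2A depleted and 2731 ± 451 in DMSO controls (SD, n = 3 each; exact permutation p = 0.1, the smallest possible). The sum was 5.40 times larger with POLR2A depleted than with actinomycin D. For 1086 of these genes that lie within 10 kb downstream of a protein-coding gene with 10 CPM or more in DMSO, on the same strand, the sums were 114, 111 and 109 CPM with actinomycin D, against 787, 985 and 866 with POLR2A depleted and 146, 114 and 128 in DMSO controls. There the POLR2A-depleted sum was 7.90 times the actinomycin D sum. For 6918 that overlap such a gene it was 3.28 times, with 574 ± 19.7 with actinomycin D, 1885 ± 162 with POLR2A depleted and 932 ± 180 in DMSO controls. For the 31988 that lie elsewhere it was 6.08 times, with 1273 ± 23.8 with actinomycin D, 7739 ± 727 with POLR2A depleted and 1382 ± 204 in DMSO controls (SD, n = 3 each; exact permutation p = 0.1 in each class). No class overlapped between the treatments. The actinomycin D means lay below the control means, but single libraries did not always do so. In the class elsewhere, DMSO replicate 2 stood at 1175, below the 1257 to 1300 of the actinomycin D libraries. In the downstream class it stood at 114, as did actinomycin D replicate 1.

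**Figure D5:**
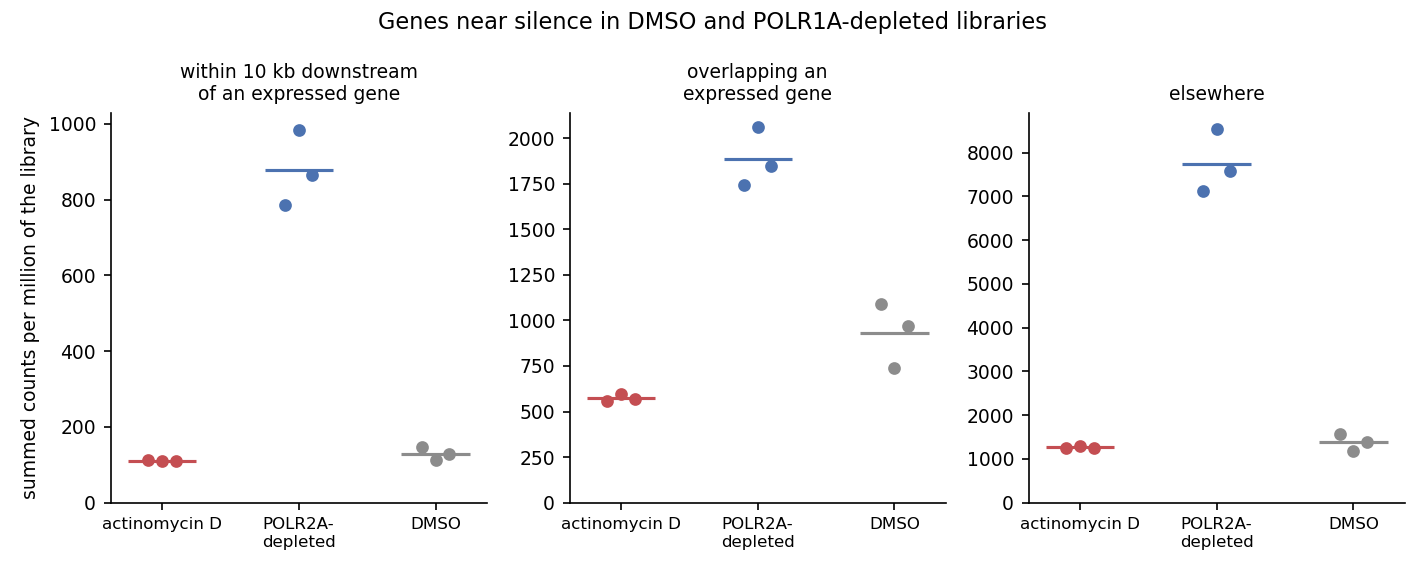
Summed CPM, relative to the library total, from genes that did not pass the filter in DMSO and POLR1A-depleted libraries, in 3 classes by position, each with its own axis from 0; points are libraries and lines are means of 3. Means with actinomycin D are 111, 574 and 1273, and with POLR2A depleted 879, 1885 and 7739; the POLR2A-depleted libraries lie above the other 2 groups in every class.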

How the data were processed

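The table deposited by the authors holds one estimated count per gene and library, not normalized, for 63241 gene IDs; 76.1% of its values were whole numbers. Per the submitters' processing notes the tools include STAR, RSEM 1.3.3 and HTSeq 2.0.2; the sources used here do not say which of them made the table, with which annotation release or strand setting. The libraries were rRNA-depleted total RNA made with a stranded kit, per the labels' protocols. Counts were rounded and fitted with edgeR 4.0.16 (R 4.3.3; quasi-likelihood, TMM scaling, filterByExpr) over all 12 libraries, including 3 POLR1A-depleted ones, with a mean per group and 8 residual degrees of freedom. The contrast was actinomycin D minus POLR2A depletion, with Benjamini-Hochberg adjustment over 23593 genes and calls at adjusted p under 0.05. Classes and coordinates came from GENCODE release 29 on GRCh38, which held 58228 of the IDs. Symbols came from a separate list of gene names, which covered 42338 of the 63241 IDs. Promoters came from RefSeq on GRCh38.p14. Gene lists are described by counts and medians. Library shares were compared with exact permutation tests. Counting error is all that intervals and floors cover, and a count of 0 was set at 3 counts over the group.

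Genes were named by a rule: the 10 highest and 10 lowest called protein-coding genes and the 5 highest and 5 lowest of other classes with a mean log2 CPM no lower than 3 and no overlap of libraries, up to 3 called members at each end of every list, the mitochondrial mRNAs and the Pol III and small nuclear RNA lists. CDKN1A, MDM2 and MYC were added after their values were seen, as was H4C3, the only tested histone gene on its list that was not called. Some genes that the rule names are not reported here. Members and lists were chosen with earlier results of these data known. The labels do not pair replicate numbers between groups. Alternatives were RLE factors, library totals alone, scaling to ribosomal protein mRNAs, DESeq2 1.42.0, other filters, the 6 contrasted libraries alone, a replicate block and each library left out. The scripts were tested on simulated data.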

Additional observations from a re-analysis of the deposited data

How the results depend on the processing

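The calls were 7337 higher and 9389 lower as reported, 7090 and 9067 with DESeq2, 7263 and 9422 with RLE factors, and 7327 and 9360 with the 6 contrasted libraries alone. Leaving out each library in turn gave 6998 to 7129 higher, 8730 to 9097 lower, 1602 to 1709 higher by 2-fold or more, 7046 to 7380 lower by 2-fold or more, and a median of -0.20 to -0.14. With the ribosomal protein scale 1751 genes were higher and 14666 lower, 377 were higher by 2-fold or more and the median was -0.82, and with library totals alone 904 were higher by 2-fold or more and the median was -0.42. Without a filter 2933 were higher by 2-fold or more and the median was -0.69. With the filter on DMSO and POLR1A-depleted libraries alone 4632 were lower by 2-fold or more and the median was -0.04; fewer genes were tested there.

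The median of the highest minus the lowest DMSO group was 1.36 (1.3 to 1.46 with a library left out), and 3.42 when ordered among all tested genes. Ranges with a library left out were 0.28 to 0.32 for span, 1.48 to 1.57 for exon number, 1.16 to 1.27 for protein-coding minus lincRNA, 1.22 to 1.33 for protein-coding minus antisense, -6.48 to -5.60 percentage points for the mitochondrial share and -3.52 to -1.92 for the top 100 genes.

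The ribosomal protein scale turned 15 of 173 named genes: BAX -0.37, HSP90AA1 -0.07, PIM1 -0.19, POLR1A -0.14, POLR2I -0.01, POLR2J -0.0, RMRP -0.10, RN7SK -0.63, RN7SL1 -0.09, RN7SL2 -0.14, RNU12 -0.09, RNU4ATAC -0.28, RPPH1 -0.08, RRM2B -0.42 and ZFP36L2 -0.14. Library totals turned RN7SK to -0.23 and RRM2B to -0.02, the filter outside the contrast RN7SK to -0.11, and no filter KIF23 to 0.02, LMNA to 0.00 and RNY1 to 0.16. With a library left out, the ranges that crossed 0 were -0.02 to 0.08 for RN7SK, -0.23 to 0.65 for RNU4ATAC, -0.37 to 0.31 for RNY1 and -0.91 to 0.77 for RNY3. The cause was not tested.

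Same-numbered libraries of the treatments did not deviate together (correlations across genes of -0.00856, -0.0082 and -0.0265), so the numbers are not taken as pairs; a replicate block gave 7242 higher and 9175 lower. Genes with few counts, such as single histone copies and small RNAs, are limited by depth, and the smaller totals of the POLR2A-depleted libraries widen their counting error.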
